A study of Mus musculus with 47 samples.

Results

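The first decile of the CLK:BMAL1 peak list of mouse liver, called q01_322peaks in the deposited data, holds the ChIP-seq peaks at the head of a list of 3217, with 2895 peaks after it. Its nucleosome profile was deposited as an average over these peaks. The set was taken by its place in the list and not by any MNase value. The sources used here do not state the ranking that put these peaks first, and the match of the averaged set to the first rows of the list rests on its name, its size and the file order.

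CLOCK (CLK) and BMAL1 form a heterodimer that binds E-box elements in DNA and drives the transcription of circadian target genes, including the genes of its own repressors, so that its activity in liver is high by day and low by night. Nucleosomes are the histone-wrapped units of chromatin, and many transcription factors bind where nucleosomes are depleted, displaced or modified. Micrococcal nuclease (MNase) cuts DNA between nucleosomes and spares the DNA that a histone core or another bound protein protects, so a low MNase signal marks DNA that was open to the enzyme.

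Livers came from adult C57BL/6 mice of 3 to 6 months, wild type or Bmal1-/-, which lack BMAL1 in the whole body and with it the CLK:BMAL1 dimer. All mice had been held in 12 h light and 12 h dark for at least 2 weeks. They were sampled at zeitgeber times (ZT, counted in hours from lights on) 2, 6, 10, 14, 18 and 22, the first 3 times in the light and the others in the dark. Chromatin was crosslinked with 1% formaldehyde for 10 min, nuclei were digested with MNase for 15 min, and DNA of about 150 nt was sequenced. There were 24 wild-type libraries, 4 mice at each time, and 23 Bmal1-/- libraries, 4 mice at each time except ZT22 with 3, where replicate 8 is not analysed here. Liver is a mixture of cell types, and the signal averages over all of them. The targeted gene cannot be checked in averaged profiles.

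Each profile held 300 values at steps of 10 bp over a window of 3000 bp, and the peak middles lay within 0.5 bp of the window middles. The measures read from it were taken in percent of the flank, the mean beyond 1000 bp on both sides of the same library. The central signal was the mean within 150 bp of the middle, the shoulder signal the mean at 200 to 400 bp on both sides, and the intermediate signal the mean at 400 to 1000 bp. Trough depth was the shoulder minus the central signal, in percentage points. About 3012 to 6751 fragments (median 4637) covered a position of the first decile in a library, and 2386 to 4417 a central position, which gives a counting error of 1.505% to 2.05%. Replicate numbers join the mice of 6 times into 4 series per genotype, and genotypes were compared over these series. The 70 assignments of 8 series allow no exact p below 0.0286.

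As regions, the peaks of the first decile were wide. Their median width was 400 bp, with quartiles of 331 and 470.75 bp, against 300 bp in the other 2895 peaks, and 87.3% of them exceeded 300 bp against 48.4%. The median width was lower in each later decile, down to 230 bp in the last. Within the first decile the median differed little between classes, from 390 bp for intergenic peaks beyond 10 kb of a gene to 430 bp for intergenic peaks within 10 kb.

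By the classes in the list, 41.6% of the peaks of the first decile lay in introns and 75 (23.3%) at transcription start sites (TSS). Another 25 (7.76%) lay elsewhere in gene bodies, 29 (9.01%) were intergenic within 10 kb and 59 (18.3%) intergenic beyond 10 kb. Among the other peaks, TSS peaks made up 17.5%, introns 44.1% and intergenic peaks beyond 10 kb 22.7%. The share of TSS peaks was 14.9% to 20.2% in deciles 2 to 10. The first decile was spread over 20 chromosomes. The highest counts were on chromosome 11 (31, or 9.63%, against 7.74% of the whole list) and chromosome 1 (25, or 7.76%, against 6.12%). Chromosome 11 also held the most peaks of the whole list.

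The first peak of the list was also the widest of the decile, with 720 bp at a TSS (mm9, chr7:52960041-52960760). The peaks at rows 2 and 3 were both intergenic within 10 kb of a gene, at chr11:68908211-68908501 and chr11:98644571-98645021. The narrowest lay in an intron at chr15:58830901-58831121. The list changes from the first to the second decile between a peak in a gene body outside introns (chr5:138696761-138697111) and a peak in an intron (chr2:6039431-6039770). The list gives no gene names, and the genome at hand is of another build, so genes and sequences are not given.

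Many peaks of the first decile had close neighbours. The middle of another peak lay within 400 bp of 48 of them (14.9%) and within 3000 bp of 92 (28.6%), against 9.08% and 18.6% of the other peaks. Of the 48, 14 had a neighbour from the first decile itself. At such peaks the shoulder or flank of one window holds the centre of another, and the average profile does not separate them. Their part in the profile was not tested.

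The first question was what the profile looks like with and without BMAL1. In both genotypes the first decile had 1 central trough, and the trough was shallower in Bmal1-/- mice. Averaged over mice and smoothed over 5 positions, the wild-type profile had its minimum of 58.9% of the flank at -15 bp from the middle, and in Bmal1-/- its minimum of 73.1% lay 15 bp right of it. Without smoothing, the mean profiles of the genotypes were farthest apart at 25 bp left of the middle, by 15.1 percentage points.

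**Figure D1:**
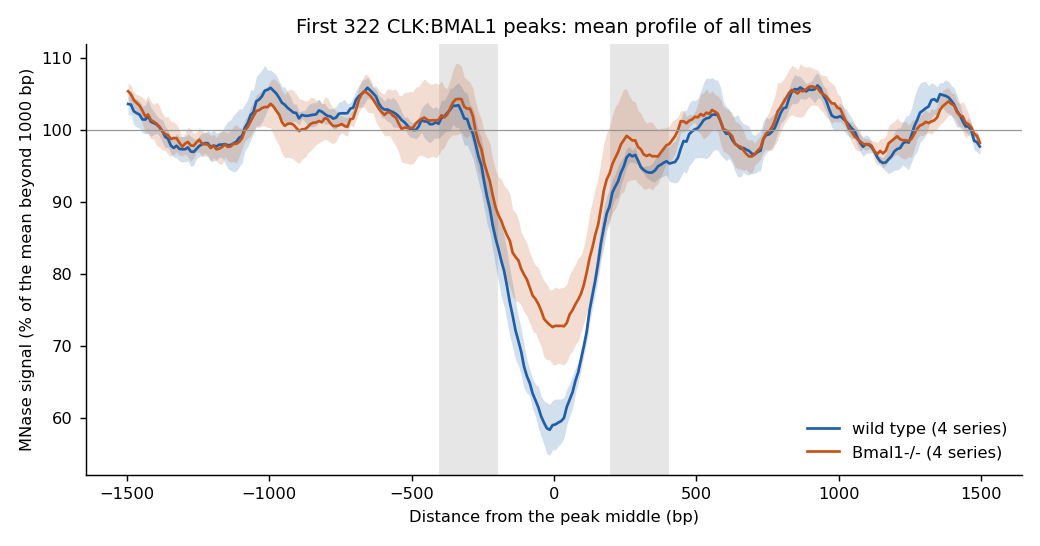
Mean MNase signal of the first decile of CLK:BMAL1 peaks against distance from the peak middle, in percent of the mean beyond 1000 bp, with lines for the mean and bands for the SD of 4 replicate series per genotype, and grey bars over the shoulders at 200 to 400 bp. The wild-type line, which is not smoothed, reaches 58.4% and the Bmal1-/- line 72.7%, while the lines lie close together beyond 400 bp.

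The central signal of the 4 wild-type series was 68.02%, 64.2%, 64.7% and 65.2% for replicates 11, 12, 26 and 27. In the Bmal1-/- series it was 78.7%, 69.8%, 81.8% and 78.4% for replicates 5, 8, 9 and 10, where replicate 8 rests on 5 times. All 4 Bmal1-/- series lay above all wild-type series, and replicate 8 was nearest to them. Over 4 series each, the means and SD were 65.5% ± 1.701 and 77.2% ± 5.15, and the genotypes lay 11.7 percentage points apart (SE 2.71). The exact two-sided permutation p was 0.0286, the smallest possible, and 0.0714 after Benjamini-Hochberg adjustment over the 5 measures tested between genotypes, so the difference did not pass the correction. Without any 1 of the wild-type series the exact p was 0.0571, with differences of 11.2 to 12.5.

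Trough depth separated the genotypes with less spread than the central signal did. It was 29.9, 30.7, 33.1 and 29.4 percentage points in the wild-type series and 17.9, 23.6, 20.7 and 23.03 in the Bmal1-/- series. The ranges did not overlap. The mean difference was -9.46 percentage points (SE 1.53; exact permutation p = 0.0286, adjusted p = 0.0714), and it kept the exact p of 0.0286 without any 1 of the 8 series. The series of lowest central signal in Bmal1-/-, replicate 8, had the lowest shoulders too (93.5%), so that its trough was as deep as that of replicate 10.

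The shoulders themselves differed by less than their spread. Wild-type shoulders stood at 96.3% ± 1.80 and those of Bmal1-/- at 98.5% ± 4.21 (SD over 4 series), 2.204 percentage points higher (SE 2.29; exact permutation p = 0.371). Intermediate signal was 101.7% ± 1.503 and 101.6% ± 2.42, a difference of -0.087 percentage points (SE 1.42; exact permutation p = 0.943). With these errors, a shoulder difference of a few percentage points could not be told from none.

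The width of the trough was read at the level midway between its minimum and the flank, on the profile smoothed over 5 positions. The mean wild-type profile crossed that level at -171.8 and 145.1 bp from the middle, where a minus marks the left side, and the Bmal1-/- profile at -174.05 and 148.9 bp. By series the width of the wild-type trough was 321.9 ± 44.5 bp and that of the Bmal1-/- trough 308 ± 51.9 bp (SD over 4 series; exact permutation p = 0.686). The minimum of single mice, averaged by series, was 58.1% ± 3.22 and 71.03% ± 4.57 (exact permutation p = 0.0286, adjusted p = 0.286 over 10 measures of shape). The difference at the floor of the trough did not pass after adjustment, and a difference in its width was not detectable at this spread of series.

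Limma was run on log2 of the signal in percent of the flank, with series means and adjustment over the 3000 positions of all 10 deciles. A stretch of 220 bp of the first decile, from 130 bp left to 90 bp right of the middle, was higher in Bmal1-/-, which is 7.33% of its positions against a background of 4.3% of all positions tested. The largest log2 difference, 0.33 ± 0.055 (SE), lay 25 bp left of the middle (limma adjusted p = 0.00341). Neighbouring positions share fragments, so such calls are given as a width and not as a number of sites. No position of the first decile was lower in Bmal1-/-, where the background was 0% of positions. In deciles 2 to 10, 3.96% of positions were called. On the signal as the authors scaled it, not divided by the flank, 0 bp of the first decile were called.

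Outside the trough, the profile of the first decile had a set of low crests at the same places in both genotypes. In wild type they stood at -995, -655 and -345 bp on the left and at 555, 915 and 1375 bp on the right. In Bmal1-/- crests were found at -1005, -655 and -335 bp and at 555, 905 and 1385 bp, and 1 more at -815 bp. A further crest lay on the right side of the trough inside 300 bp in both genotypes. The highest wild-type crests reached 105.5% at -995 bp (above the flank in 21 of 24 mice) and 105.8% at 915 bp (20 of 24 mice). The crest inside 300 bp on the right had a mean of 96.3% in wild type, and 5 of 24 mice exceeded the flank there.

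Over the 220 positions beyond 400 bp the mean profiles of the genotypes differed by 1.21 percentage points (root mean square), with a Pearson r of 0.902 across positions. Within 400 bp the root mean square difference was 8.02 percentage points. Positions are not independent and share the same peaks, so the correlation is a description. The SD of the profile itself beyond 400 bp was 2.79 percentage points in wild type and 2.42 in Bmal1-/-.

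The mean profile of the first decile was not symmetric about the peak middle. Left and right are as in the file, and the sources used here do not state whether windows were turned by the strand of a gene. The left shoulder crest reached 103.1% in wild type and 104.3% in Bmal1-/-, while the right crest inside 300 bp stayed at 96.3% and 98.98%. Between 150 and 400 bp, the excess of the left side was largest at 335 bp in wild type (9.36 percentage points, left higher in 22 of 24 mice) and at 345 bp in Bmal1-/- (7.97 percentage points, 20 of 23 mice). These positions were picked as the largest in the same mice, so the counts there are a description and not a test.

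Averaged over 200 to 400 bp, left minus right was 6.23, 1.40, 3.53 and 1.68 percentage points in the wild-type series and 7.47, 1.08, 3.22 and -1.97 in the Bmal1-/- series. By mice, the left was higher over this zone in 18 of 24 wild-type and 15 of 23 Bmal1-/- mice. The genotypes overlapped, and the difference of -0.758 percentage points (SE 2.27) did not pass (exact permutation p = 0.771). The sign of this asymmetry was not common to the list, since the wild-type value ranged from -5.59 to 10.5 percentage points in deciles 2 to 10. Within 150 bp, the left side minus the right side was -2.10 percentage points in wild type, with the left lower in 14 of 24 mice, and the Bmal1-/- value was 0.584 (exact permutation p = 0.0571 for the difference, adjusted p = 0.286).

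The next comparison followed the centre through the day. In wild-type mice the central signal of the first decile was low in the light and high in the dark, and in Bmal1-/- mice no such course was detected. Each mouse is given below, in the order of replicates 11, 12, 26 and 27 for wild type and 5, 8, 9 and 10 for Bmal1-/-.

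At ZT02 wild-type mice had 65.6%, 67.03%, 64.3% and 64.9%, and Bmal1-/- mice 84.5%, 69.5%, 82.9% and 81.9%. The wild-type mice lay within 3 percentage points of each other, and all Bmal1-/- mice were above them, replicate 8 by the least. At ZT06 wild-type mice had 57.6%, 51.7%, 55.6% and 60.3%, the lowest group mean of all. The Bmal1-/- mice at ZT06 fell into a lower and a higher pair, with 67.999% and 68.3% for replicates 5 and 8 and 82.7% and 80.7% for replicates 9 and 10, all above the wild-type mice. At ZT10 wild-type mice had 65.1%, 60.7%, 56.7% and 54.5%, and Bmal1-/- mice 77.8%, 70.9%, 78.4% and 73.7%, again with no overlap.

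In the dark the wild-type mice moved up towards the Bmal1-/- mice. At ZT14 wild-type mice had 71.7%, 67.7%, 72.6% and 66.3%, and Bmal1-/- mice 76.99%, 74.7%, 92.3% and 77.4%. The groups did not overlap at ZT14, but replicate 9 stood far above the other 3 mice. At ZT18 wild-type mice had 71.3%, 67.2%, 74.02% and 71.6%, and Bmal1-/- mice 75.3%, 65.9%, 74.8% and 75.5%. Here the groups overlapped, since replicate 8 was the lowest of all 8 mice and the other Bmal1-/- mice were the highest. At ZT22 wild-type mice had 76.8%, 71.1%, 65.2% and 73.4%, and the 3 Bmal1-/- mice, replicates 5, 9 and 10, had 89.7%, 80.1% and 81.1%, all above wild type.

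**Figure D2:**
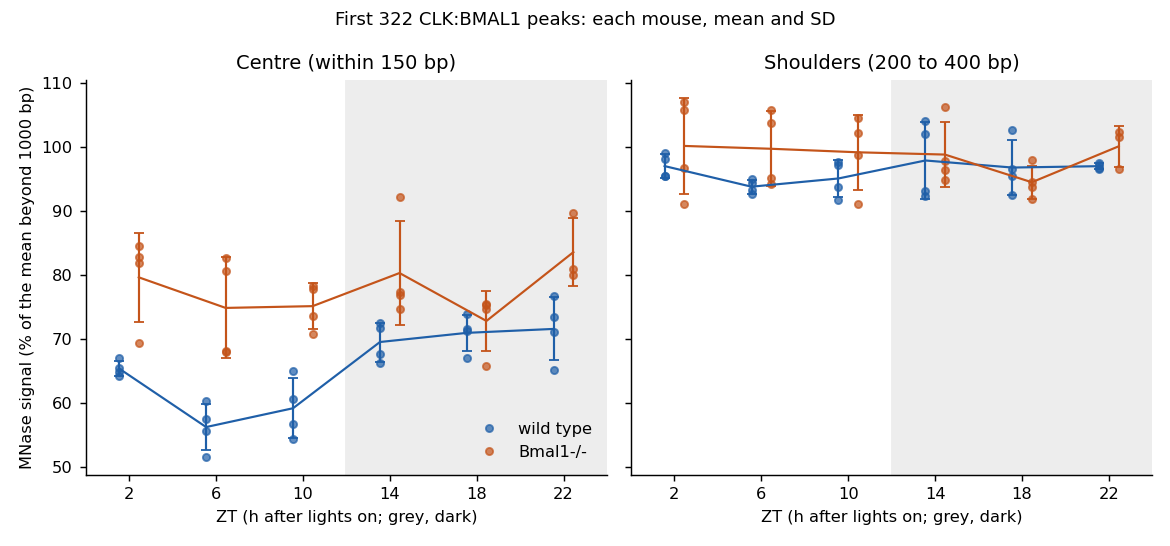
Central signal (left) and shoulder signal (right) of the first decile for each mouse, in percent of the mean beyond 1000 bp, against ZT, with lines through the group means and bars for the SD of 4 mice (3 for Bmal1-/- at ZT22). The wild-type centre has its lowest mean, 56.3%, at ZT06 and its highest, 71.6%, at ZT22, while the genotypes overlap at every time in the shoulders.

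The genotype difference in the centre was thus largest at ZT06, with 18.6 percentage points, and smallest at ZT18, with 1.86. It passed the exact two-sided permutation test of mice at ZT02, ZT06, ZT10 and ZT14 (p = 0.0286 and adjusted p = 0.0429 over 6 times at each) and did not pass at ZT18 (p = 0.514) or ZT22 (p = 0.0571, adjusted p = 0.0686). These 4 calls were lost without any 1 of the wild-type series or without Bmal1-/- replicate 9 (adjusted p = 0.0571 to 0.0857) and held without replicate 5, 8 or 10. They were also lost with the centre taken within 250 bp (adjusted p = 0.0571 to 0.171) and on the signal as the authors scaled it (adjusted p = 0.0857 each). The same held without the 2 libraries farthest from their group (adjusted p = 0.0571 each). Those 2 were of ZT14 and ZT18, so at ZT02, ZT06 and ZT10 the mice were unchanged and only the adjustment over 6 times took the calls. Without any 1 series the exact permutation p at ZT06 and ZT10 stayed at 0.0286, the smallest possible, so those losses too came through the adjustment. At ZT14 the difference was 10.8 percentage points with all mice and 6.79 without replicate 9.

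Ordered by mean, the wild-type times ran from ZT06 (56.3% ± 3.65) over ZT10 (59.2% ± 4.65), ZT02 (65.4% ± 1.19), ZT14 (69.6% ± 3.05) and ZT18 (71.02% ± 2.85) to ZT22 (71.6% ± 4.91; SD, n = 4 mice each). No step between neighbours in this order passed an exact permutation test (p = 0.0571 to 0.886 over 5 steps, adjusted p = 0.214 to 0.886). The ZT02 mice lay between the other light times and the dark times, and ZT14, ZT18 and ZT22 could not be told apart. In Bmal1-/- the order ran from ZT18 (72.9% ± 4.67) to ZT22 (83.6% ± 5.31; SD, n = 4 and 3 mice), and no step passed (exact permutation p = 0.286 to 0.914). The spread of mice within a time was wider in Bmal1-/-, with a pooled SD of 6.34 percentage points against 3.60 in wild type.

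Trough depth in wild type followed the same order of times turned around. It was 31.6 ± 2.59, 37.5 ± 4.54 and 35.9 ± 2.77 percentage points at ZT02, ZT06 and ZT10 and 28.4 ± 3.16, 25.8 ± 2.05 and 25.4 ± 4.60 at ZT14, ZT18 and ZT22 (SD, n = 4 mice each). In Bmal1-/- it ranged from 16.5 ± 5.33 at ZT22 (SD, n = 3 mice) to 24.9 ± 2.65 at ZT06 (SD, n = 4 mice), where the time of the deepest trough was not that of the lowest centre, ZT18. The fitted 24 h amplitude was 6.54 ± 0.946 percentage points in wild type (SE, 24 mice; permutation p = 1e-05, the smallest possible) and 2.94 ± 1.35 in Bmal1-/- (SE, 23 mice; permutation p = 0.114). The trough was shallowest at ZT 19.2 ± 0.553 h in wild type by this fit.

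All 4 wild-type series had a lower centre in the light than in the dark, with light minus dark at -10.6, -8.89, -11.7 and -10.5 percentage points. The Bmal1-/- series had -3.89, -0.773, -1.07 and 0.754. The 2 sets of values did not overlap. Light minus dark was -10.4 percentage points in wild type (permutation p = 3e-05, two-sided, 100000 resamples; 12 against 12 mice) and -1.93 in Bmal1-/- (permutation p = 0.499; 12 against 11 mice). The difference between genotypes was 9.17 percentage points by series (exact permutation p = 0.0286, the smallest possible, and adjusted p = 0.0571 over the centre and the shoulders). Depth was higher in the light in both genotypes, with a median of 5353 fragments per flank position in wild-type light libraries and 4811 in dark ones, and 4741 and 4357 in Bmal1-/-, and its part in the result was not tested here.

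The cosine of 24 h placed the wild-type minimum of the centre at ZT 7.15 ± 0.515 h and its amplitude at 8.02 ± 1.08 percentage points (SE over 24 mice). By bins of 50 bp, this amplitude was 9.60 ± 1.69 left of the middle, the highest of all bins, 8.86 ± 1.47 in the next bin to the left and 8.74 ± 1.58 right of the middle. It was 7.34 ± 1.51 at 100 to 150 bp on the left and 6.44 ± 1.03 on the right, and 4.19 ± 1.39 and 3.16 ± 1.28 at 200 to 250 bp. Farther out it did not keep falling, with 3.73 ± 1.58 at 400 to 450 bp on the left. On the right it was 4.29 ± 1.28 at 350 to 400 bp, with the minimum there at ZT 0.297 ± 1.14 h. In Bmal1-/- no bin within 150 bp had an amplitude above 2.96 ± 2.39 (SE, n = 23 mice), at 50 to 100 bp on the right.

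**Figure D3:**
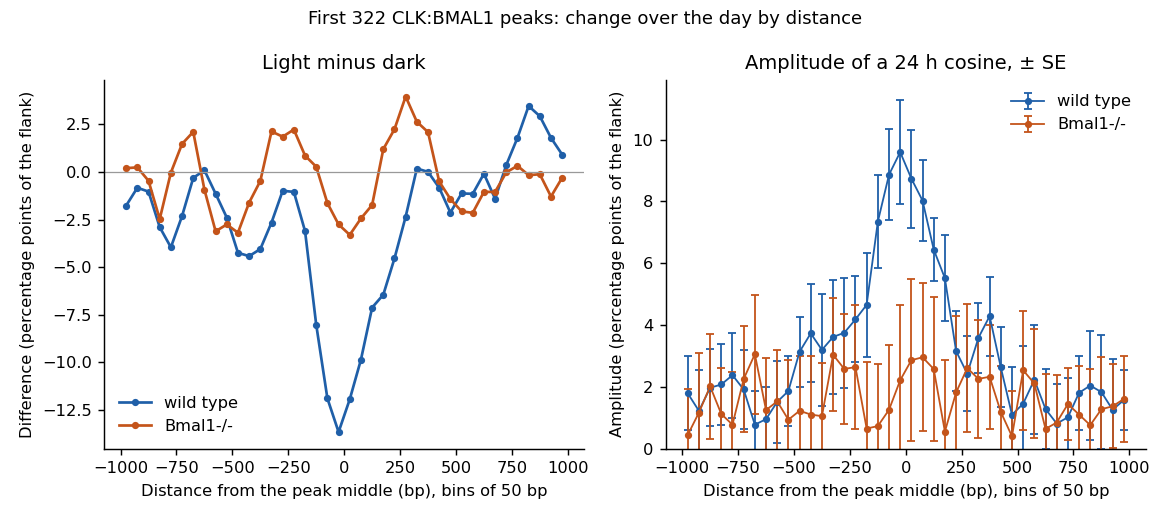
Light minus dark difference (left) and amplitude of a 24 h cosine with its SE (right) of the first decile, in percentage points of the flank, by bins of 50 bp from the peak middle for 24 wild-type and 23 Bmal1-/- mice. The wild-type difference is -13.7 beside the middle and 0.18 at 300 to 350 bp on the right. Farther out it still varies, with -3.96 at 750 to 800 bp on the left and 3.47 at 800 to 850 bp on the right. The Bmal1-/- amplitudes within 150 bp stay at or below 2.96.

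The fitted time of the wild-type minimum varied between the bins of the trough. It lay at ZT 6.43 ± 0.672 h in the bin left of the middle and at ZT 6.42 ± 0.692 h in the bin right of it, and at ZT 8.40 ± 0.789 h at 100 to 150 bp on the left and ZT 7.96 ± 0.613 h on the right (SE, n = 24 mice). At 200 to 250 bp on the left it lay at ZT 11.2 ± 1.27 h and on the right at ZT 6.78 ± 1.55 h. A difference between these times was not tested. By bins, the ZT02 trough was the narrower one: at 150 to 200 bp wild type had 85.6% on the left and 89.9% on the right at ZT02, against 75.4% and 79.2% at ZT06, while beside the middle ZT02 was 55.2% on the left, between ZT06 (49.8%) and ZT14 (65.7%).

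The width at the midway level was also smallest at ZT02, with a wide spread. In wild type it was 264.6 ± 47.4 bp at ZT02, 324.5 ± 40.5 at ZT06, 344 ± 45.8 at ZT10, 347 ± 79.996 at ZT14, 314 ± 44.1 at ZT18 and 338 ± 59.2 at ZT22 (SD, n = 4 mice each). A cosine of 24 h did not pass for it (amplitude 27.1 ± 15.9 bp, permutation p = 0.254), nor did light against dark (-21.9 bp, permutation p = 0.351). In Bmal1-/- the group means lay between 290 and 325 bp.

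**Figure D4:**
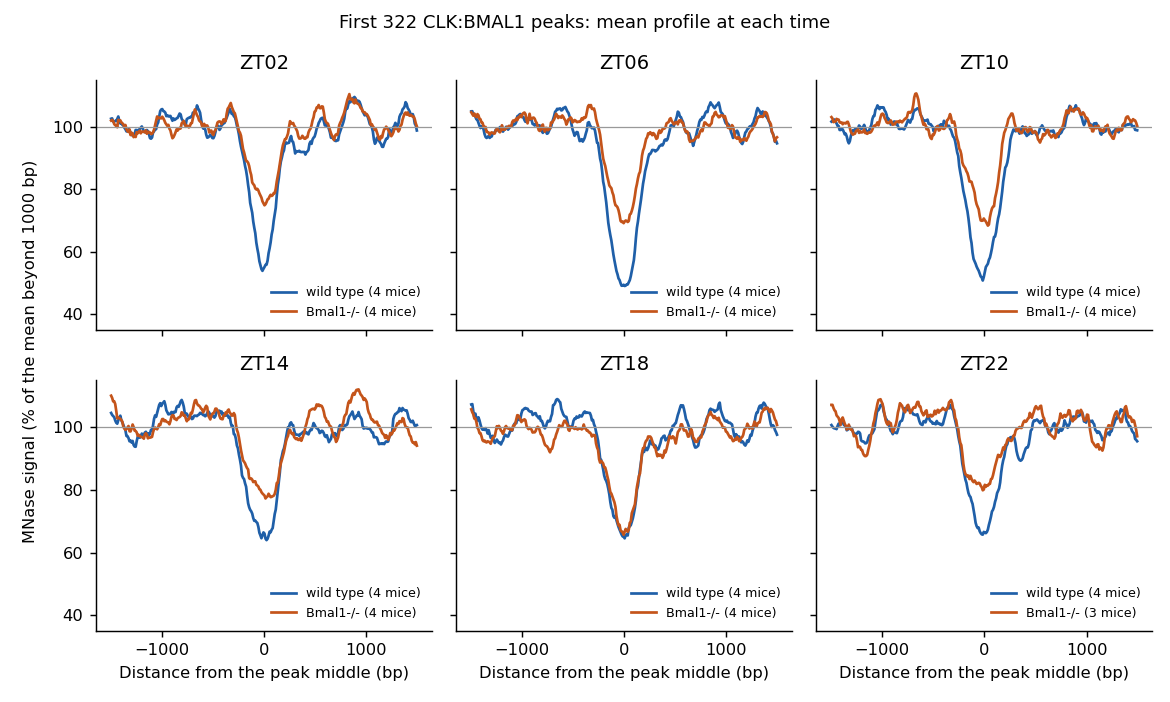
Mean MNase signal of the first decile at each of 6 times against distance from the peak middle, in percent of the mean beyond 1000 bp, with 1 line per genotype over the mice named in each panel. After smoothing over 5 positions, which the lines do not have, the wild-type minimum lies at 54.8%, 49.2% and 51.97% at ZT02, ZT06 and ZT10 and at 64.9%, 65.2% and 66.1% at ZT14, ZT18 and ZT22, where at ZT18 the Bmal1-/- minimum is 66.6%.

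Position by position, limma with 12 genotype by time groups called 160 bp higher in Bmal1-/- at ZT02 (90 bp left to 70 bp right, background 2.73%, and 0 bp lower with a background of 0.0667%), 270 bp at ZT06 (140 bp left to 130 bp right, background 3.97%) and 150 bp at ZT10 (140 bp left to 10 bp right, background 0.5%). The largest log2 differences were 0.51 ± 0.094, 0.51 ± 0.089 and 0.48 ± 0.093 (SE; limma adjusted p = 0.000425, 0.000142 and 0.000858). At ZT10 none of the positions of deciles 2 to 10 was called, and the 15 called positions were those of the first decile. At ZT14, ZT18 and ZT22 limma called 0 bp of the first decile (background 0% each), with 430, 140 and 410 bp at an unadjusted p under 0.05. Without wild-type replicate 26 the called width at ZT02 was 100 bp, and without replicate 27 it was 40 bp at ZT10.

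Between light and dark, limma called 230 bp of the first decile lower in the light in wild type, from 120 bp left to 110 bp right of the middle, against a background of 1.93% of all positions. These were 7.67% of the positions of the first decile and compare with 1.3% in deciles 2 to 10. The largest log2 difference was -0.36 ± 0.054 (SE), 15 bp left of the middle (limma adjusted p = 1.32e-05). In Bmal1-/- limma called 0 bp (background 0%; 30 bp without adjustment), and for the difference between genotypes 0 bp (background 0%; 300 bp unadjusted). A 24 h cosine was called over 270 bp in wild type, from 140 bp left to 130 bp right (background 1.83%), and over 0 bp in Bmal1-/- (background 0%; 0 bp unadjusted).

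The shoulders of the first decile, at 200 to 400 bp, were compared in the same way. Wild-type group means lay between 93.9% ± 1.09 at ZT06 and 97.9% ± 6.03 at ZT14, and Bmal1-/- means between 94.5% ± 2.54 at ZT18 and 100.2% ± 7.54 at ZT02 (SD, n = 4 mice each). The genotypes overlapped or met within their spread at all 6 times, with differences from -2.30 percentage points at ZT18 to 5.92 at ZT06 (exact permutation p = 0.0857 to 0.886, adjusted p = 0.429 to 0.886). Light minus dark in the shoulders was -1.93 percentage points in wild type (permutation p = 0.157) and 2.09 in Bmal1-/- (permutation p = 0.339), and the difference between genotypes was 4.25 (exact permutation p = 0.229). The wild-type cosine reached 1.49 ± 0.94 percentage points (SE, 24 mice; permutation p = 0.306), and 3.15 with shoulders taken at 150 to 300 bp (permutation p = 0.0274, adjusted p = 0.0548).

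The 2 wild-type shoulders were also read separately. The left shoulder was lowest at ZT10 (94.2% ± 4.76) and highest at ZT22 (100.7% ± 3.14), and the right shoulder lowest at ZT06 (91.98% ± 1.23) and highest at ZT14 (98.6% ± 4.76; SD, n = 4 mice each). The fitted minimum was at ZT 10.0 ± 1.78 h on the left (amplitude 3.30 ± 1.54, permutation p = 0.124) and at ZT 1.96 ± 1.43 h on the right (amplitude 2.59 ± 0.972, permutation p = 0.0483; SE, n = 24 mice). These p-values are not adjusted. Left minus right in wild type was 7.09 ± 3.62 percentage points at ZT02, where all 4 mice had a higher left side, 3.74 ± 4.04 at ZT06, -1.96 ± 5.34 at ZT10 with 3 of 4 mice lower on the left, -1.39 ± 12.2 at ZT14, 4.50 ± 3.89 at ZT18, and 7.28 ± 5.82 at ZT22 with 4 of 4 higher. A time course in this measure was not tested. In Bmal1-/- it was also lowest at ZT10 (-2.54 ± 3.26, 3 of 4 mice lower on the left; SD, n = 4 mice).

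Set against the mean of deciles 2 to 10, the first decile had the lower centre in wild type and a like one in Bmal1-/-. Deciles 2 to 10 had a centre of 69.9% ± 0.736 in wild type and of 78.1% ± 3.75 without BMAL1 (SD over 4 series), and the first decile minus the others was -4.35 and -0.879 percentage points. The genotype difference of the first decile exceeded that of the others by 3.48 percentage points, which did not pass (exact permutation p = 0.0571), although it did with the centre taken within 50 bp (3.82, p = 0.0286). By single deciles, the genotype difference was 11.7 in the first and 5.81 to 11.2 in the others. For trough depth the excess was -4.66 percentage points (exact permutation p = 0.0286, the smallest possible), and this p was not adjusted over the measures compared. The depth in deciles 2 to 10 was 23.7 percentage points in wild type and 18.9 in Bmal1-/-. Their single genotype differences in depth lay between -8.13 and -2.13 against -9.46 in the first.

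The larger part of the distance between the first decile and the rest lay in the light. In wild type the first decile minus the others was -5.43 ± 2.16, -9.997 ± 2.12 and -7.27 ± 4.65 percentage points at ZT02, ZT06 and ZT10, below 0 in 4 of 4 mice each, and -0.793 ± 1.91, -1.79 ± 3.34 and -0.850 ± 3.00 at ZT14, ZT18 and ZT22, below 0 in 2, 3 and 2 of 4 mice (SD, n = 4 mice each). In Bmal1-/- it ran from -3.72 ± 3.19 percentage points at ZT18 (SD, n = 4 mice) to 3.41 ± 2.80 at ZT22 (SD, n = 3 mice). The genotypes differed in this distance by 7.31 percentage points at ZT06 (exact permutation p = 0.0286) and by 7.69 at ZT10 (p = 0.0571), and neither passed after adjustment over 6 times (adjusted p = 0.171 each).

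Light minus dark in wild type was -10.4 percentage points in the first decile and -4.00 in deciles 2 to 10, where single deciles ranged from -6.74 to -0.339. The excess of -6.42 percentage points passed (permutation p = 0.00011, two-sided, 24 mice). In trough depth the first decile exceeded the others by 4.99 percentage points between light and dark in wild type (permutation p = 0.00069), and by 1.58 in Bmal1-/- (permutation p = 0.234). The first decile had a wild-type trough depth of 35.02 percentage points in the light and 26.5 in the dark. For Bmal1-/- the light value was 23.14 and the dark value 19.1. In Bmal1-/- light minus dark of the centre was -1.93 in the first decile and -1.10 in the others. The amplitude of the 24 h cosine was 8.02 ± 1.08 in the first decile and 3.60 ± 0.644 in the others in wild type, with the minima at ZT 7.15 ± 0.515 h and ZT 8.08 ± 0.683 h (SE, n = 24 mice). The distance between the first decile and the others followed a cosine of 4.61 ± 0.893 percentage points in wild type (permutation p = 0.00037) and of 0.286 ± 1.18 in Bmal1-/- (permutation p = 0.97; SE, n = 23 mice).

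**Figure D5:**
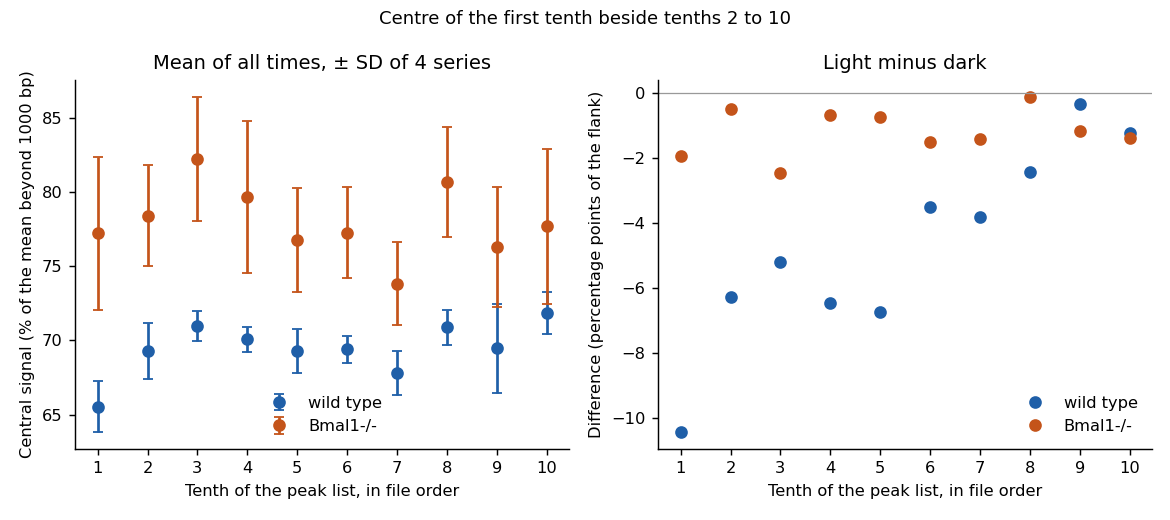
Central signal as the mean of 4 series with its SD (left) and light minus dark difference in the central signal (right) for each decile of the peak list, by genotype. The first decile has the lowest wild-type mean, 65.5%, and the wild-type light minus dark value farthest from 0, -10.4, while its Bmal1-/- values, 77.2% and -1.93, lie within the range of the other deciles.

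In both genotypes the highest mean intermediate signal was that of the first decile. Its intermediate signal, 101.7% in wild type and 101.6% in Bmal1-/-, was above that of each of the other 9 deciles, whose mean was 97.2% and 97.8%. Its shoulders were at 96.3% against 93.6% in wild type, where 1 of the other 9 deciles was higher, and at 98.5% against 96.97% in Bmal1-/-, where 2 were higher. The genotype differences of the first decile did not differ from those of the others in the shoulders (-1.18 percentage points, exact permutation p = 0.371) or in the intermediate zone (-0.677, p = 0.457), as far as the spread of 4 series can show.

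The 78 peaks just past the first decile could be read by subtraction, because the table also holds a set of the top 400 peaks. Their wild-type centre was 64.1% ± 2.51 and their Bmal1-/- centre 75.4% ± 2.25 (SD over 4 series), near those of the first decile, and light minus dark was -2.41 percentage points in wild type and 0.982 in Bmal1-/-. These values are a description, and they assume that the top 400 peaks hold the first decile. The summed signal of the remaining 78 peaks was above 0 at every position in every library, with 194.88 signal units as its lowest value. The assumption needs such a sum but is not shown by it, since another set of 400 peaks of like signal could give it too.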

How the data were processed

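MNase-seq libraries of 47 mouse livers were used. The authors deposited MNase signal, a scaled coverage that they averaged over 27 sets of peaks, per the file's own layout, as 300 values per library and set. CASAVA 1.7, Bowtie and the build mm9 are named in the submitters' processing notes. The sources used here do not state the aligner version, fragment length, duplicate handling or scaling. The 300 values were taken as steps of 10 bp centred on the peak middle. In every library 100% of the values were whole multiples of the worth of 1 fragment (tolerance 0.1 of it), which gave the depth. No molecular identifiers mark the fragments, so counting errors cover counting alone.

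Each profile was divided by its flank, which removes differences of scale between libraries and any change that the flank shares. Series means were tested by exact two-sided permutation, light against dark and 24 h cosines by 100000 resamples. Limma 3.58.1 (R 4.3.3, eBayes with a trend) was run over 3000 positions with Benjamini-Hochberg adjustment at 0.05, without a pseudocount. Numpy 2.4.6 and scipy 1.17.1 (Python 3.11.15) were used, and the scripts were tested on simulated data. No 2 libraries had identical profiles. Each library is 1 mouse, and the tests set differences against the spread of mice or of series, whose numbers did not meet the criterion for pairing. The peaks named are rows 1 to 3, the widest, the narrowest, and those at the boundary of the set. Edges, sides of the centre, bins and comparisons by time with other deciles were added after the data were seen. The set, its measures and the tests were chosen with earlier results of these data known. Alternatives left out each replicate number, changed the zones, the scaling, the pseudocount, the trend and the filter, and added a replicate block.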

Additional observations from a re-analysis of the deposited data

Results flagged for a closer look

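The central signal, the shoulder signal and left minus right of the first decile were examined together. Of their 39 groups of 4 mice or series, 2 held a value far from the others, where chance gives about 1 in 20 groups. These 2 were in the central signal, which supplied only a part of the 39 groups. In Bmal1-/- at ZT14, replicate 9 had 92.3% of the flank and the next mouse 77.4%. In Bmal1-/- at ZT18, replicate 8 had 65.9% and the next mouse 74.8%. Light minus dark in the central signal differed between the genotypes by 9.17 percentage points (exact two-sided permutation p = 0.0286 over 4 against 4 series, the smallest possible, and adjusted p = 0.0571 over 2 measures). It was 8.51 to 10.1 when 1 series was left out.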

How the results depend on the processing

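All 41 results were recomputed under the alternatives, 538 values in all, of which 472 were counted as unchanged. For the zone measures, unchanged meant the same direction and the same side of the threshold. For limma, it meant a called width within a set ratio of the main one, or no call in either. The measures of shape and the comparisons by time with the other deciles were computed once. Without 1 series, the genotype difference in the centre was 10.1 to 14.1 percentage points, and by time 12.6 to 17.7 at ZT02, 16.02 to 20.9 at ZT06, 14.4 to 17.9 at ZT10 and 6.79 to 12.7 at ZT14. At these times the call was lost in 5 of 8 such settings, all but those without replicate 5, 8 or 10. At ZT06 and ZT10 the exact permutation p stayed at 0.0286 in all 8, so the calls there were lost through the adjustment. The genotype difference was -2.43 to 0.716 in left minus right, -0.829 to 1.10 in intermediate signal and -1.54 to 2.99 in the ZT14 shoulder. Light minus dark in the shoulders was -3.27 to -0.297 in wild type and -0.187 to 3.88 in Bmal1-/-. The limma width was 100 to 190 bp at ZT02 and 40 to 190 bp at ZT10.

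With the centre within 250 bp the differences at ZT02, ZT06, ZT10 and ZT14 were 9.68, 14.8, 13.98 and 7.56 (adjusted p up to 0.171), and with it within 50 bp the excess over the other deciles was 3.82 (exact permutation p = 0.0286). Shoulders at 150 to 300 bp gave a genotype difference of 0.381 in left minus right and of 0.431 in the ZT18 shoulder. They also gave a wild-type shoulder cosine of 3.15 (permutation p = 0.0274). A flank beyond 750 bp gave a genotype difference of 0.094 in intermediate signal. On the authors' scale, in signal units, the genotype difference in the centre was 0.735 (exact permutation p = 0.0571), and by time 0.985, 1.26, 1.08 and 0.686 from ZT02 to ZT14. The genotype difference in the ZT22 shoulder was -0.094 on that scale. The excess over the other deciles was 0.299 (exact permutation p = 0.0286), and limma called 0 bp between genotypes. The cause was not tested.

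Without the 25% of positions of lowest signal limma called 0 bp in all 6 results with calls, because that filter removed all 30 positions within 150 bp. With 47 libraries as independent it called 390 bp between genotypes. Without the 2 libraries far from their group, an alternative chosen after the data were seen, the differences at ZT02, ZT06, ZT10 and ZT14 were 14.3, 18.6, 15.9 and 6.79 (adjusted p = 0.0571 each). Those 2 libraries were of ZT14 and ZT18, so at ZT02, ZT06 and ZT10 only the adjustment changed. Without ZT22, also added later, the 17 results kept their calls. Same-numbered mice did not meet the criterion for pairing, every pair above 0.1: of 60 wild-type and 55 Bmal1-/- pairs, 23 and 29 correlated above 0.1 (median r 0.083 and 0.101, against -0.047 and -0.058 for other numbers), and 15 of 24 and 15 of 23 libraries were closest to their own number. With a replicate block limma called 80 bp higher in the difference between genotypes of light minus dark, and the other 13 results kept their calls. Depth limits a central position to an error of 1.505% to 2.05%, and the 4 series limit differences in the shoulders.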
